A study of Macaca mulatta with 7 samples.

Results

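The SPATA (spermatogenesis associated) and TEX (testis expressed) genes were followed in sperm RNA of the rhesus macaque (Macaca mulatta), sequenced as total RNA. They were chosen by name, with earlier results of these data known. A symbol had to begin with SPATA or TEX followed by a digit, and SPATA3, TEX101, TEX11 and TEX15 were left out, which gave 24 SPATA and 21 TEX genes, 45 of the 18282 genes analysed. RNA came from 3 libraries labelled Maltreated, from males 5.67 to 5.78 years old, and from 4 libraries labelled Control, from males 5.72 to 5.92 years old. Both groups went through a PureSperm density gradient, which selects sperm by density, and a TRIzol extraction. The title of the series names early life stress as its subject, but the labels do not say what the maltreatment was or when it took place, and they list no other treatment and no genotype. Each library has its own age and number. How many ejaculates stand behind a library is not given, so p-values measure the spread between these libraries.

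Both names were given to genes found through their testis transcripts, so the 45 genes are not a family with a shared protein fold. Some act in meiosis, where germ cells pair and recombine their chromosomes. Others act in the spermatid, which builds an acrosome (the vesicle that opens at fertilisation), a flagellum and a sheath of mitochondria, and several are housekeeping genes active in most cells. Sperm hardly transcribe, and the RNA they carry is what remains from these earlier stages.

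A deposited count is the number of overlaps between reads and the exons of a gene, on its own strand (sense) or on the other strand (antisense). The libraries held 6160996 to 30715268 sense counts in the Maltreated group and 5316383 to 9847743 in the Control group. Markers of mature sperm stood above the other marker lists. These 16 genes, such as the protamines, summed to 47199.7 to 100585 CPM (counts scaled to the library total) in Maltreated and 49044 to 61641 in Control libraries. The protamine PRM2 alone had 29233 to 72127 CPM in Maltreated and 29295 to 38695 CPM in Control libraries. Markers of testis somatic cells (13 genes) summed to 24.1 to 42.4 CPM in Maltreated and 24.9 to 107 in Control libraries. Of these only INSL3, the hormone of testicular Leydig cells, was at 0 throughout. AMH, for example, had 3.93 to 10.2 CPM in Maltreated and 1.62 to 9.40 CPM in Control libraries. Leukocyte markers (18 genes) summed to 20.2, 57.3 and 1125 CPM in Maltreated 1 to 3, against 19.9, 20.98, 73.3 and 744 in Control 1 to 4, so Maltreated 3 and Control 4 stood apart. The B cell marker MS4A1 had no count outside Maltreated 1, and the T cell marker CD3D did not exceed 0.406 CPM in any library. Epithelial and gland markers (13 genes) reached 28.0 CPM in the Maltreated group and, in Control 2, 297 in the Control group.

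Most SPATA and TEX genes left RNA in sperm. Sense counts were present in all 7 libraries for 35 of the 45 (77.8%), against 45.9% of all genes, and no member lacked sense counts altogether. To compare genes with each other, counts were divided by exon length and scaled to the same sum in every library (TPM). The median member stood at 27.0 TPM and the median gene at 3.13 TPM. Above the median gene were 37 members, and 13 lay above 62.7 TPM, the 90th percentile of all genes. A few genes carried much of the signal: SPATA6 alone made up 19.9% of the members' summed TPM and the top 5 made up 48.0%.

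**Figure D1:**
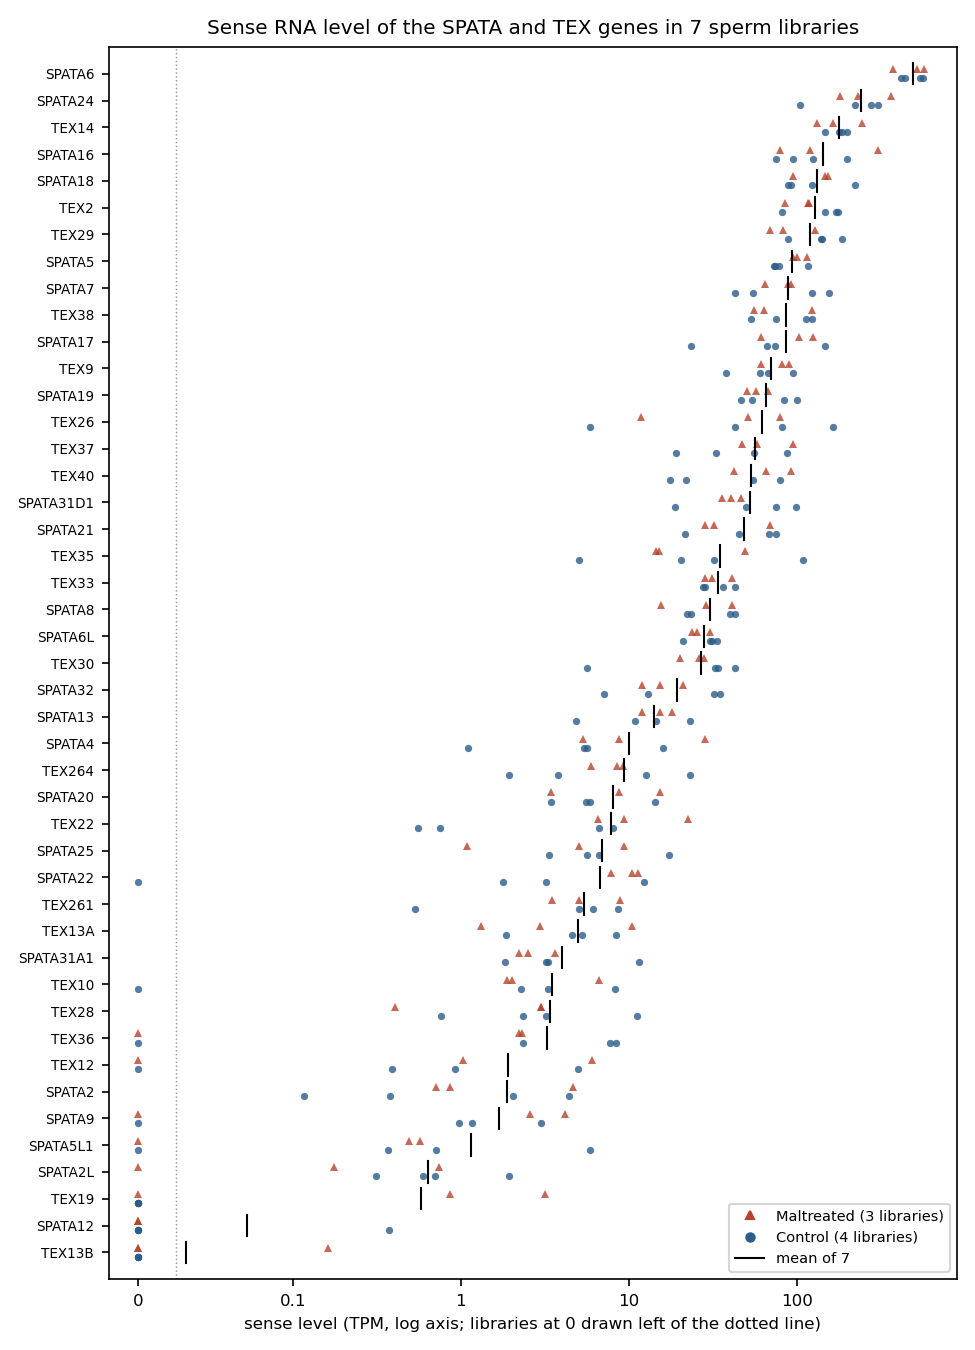
Sense level in TPM (log axis) of the 45 genes, ordered by their mean over 7 libraries, with triangles for Maltreated and circles for Control libraries and a bar for the mean. Means run from 490.0 TPM in SPATA6 to 0.0230 TPM in TEX13B, and for most genes the symbols of the groups are interspersed.

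Genes of spermatid and sperm structure had the highest median TPM of the role lists. The 21 members in this list had a median of 48.6 TPM, against 8.70 TPM for 12 broadly expressed members and 4.97 TPM for 7 members of meiosis and germ cell division. This order depends on exon length. The broadly expressed SPATA5, with 8143 exon bases, had 26912 sense counts and 93.3 TPM, whereas SPATA24, with 672 exon bases, had 4996 sense counts and 240 TPM. SPATA6, which in mouse builds the connecting piece between sperm head and tail, had 372, 573 and 522 TPM in Maltreated 1 to 3, against 562, 439.7, 419.7 and 542 TPM in Control 1 to 4. It was the highest member in every library, and the groups overlapped. SPATA24 had 180.4, 365 and 232 TPM in Maltreated and 221, 275, 305 and 105 TPM in Control libraries. SPATA16, an acrosome protein whose loss in men gives round-headed sperm, had 79.8, 305 and 119.9 TPM in Maltreated and 75.2, 198, 125 and 95.0 TPM in Control libraries. Maltreated 2 was thus the highest library for SPATA24 and SPATA16 as well as SPATA6, and in each gene the other Maltreated libraries lay within the Control range or below it.

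SPATA18 helps mitochondria to remove damaged proteins, and BNIP3 and BNIP3L are its partners. It had 153, 146 and 95.0 TPM in Maltreated and 123, 92.5, 88.7 and 222 TPM in Control libraries, with the highest value in Control 4. TEX38, which in mouse spermatids works with the palmitoyltransferase ZDHHC19, had 123, 63.5 and 55.4 TPM in Maltreated and 75.3, 53.3, 113 and 123 TPM in Control libraries. SPATA19 of the sperm mitochondria averaged 65.9 ± 19.8 TPM (SD, n = 7), and TEX40 (now CATSPERZ), a subunit of the calcium channel that drives hyperactive swimming, averaged 53.3 ± 28.0 TPM (SD, n = 7). At the low end of the list SPATA12 had 2 counts in all, both in Control 4.

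In the meiosis list a single gene was abundant. TEX14, which keeps the bridges between dividing germ cells open in mouse, had 132, 246 and 163 TPM in Maltreated and 187, 198, 179 and 147 TPM in Control libraries. The Control values lay inside the Maltreated range. TEX30 followed at 27.0 ± 11.7 TPM (SD, n = 7), and SPATA22, the partner of MEIOB in the repair of meiotic DNA breaks, at 6.70 ± 4.99 TPM (SD, n = 7). TEX12, a protein of the synaptonemal complex, and TEX19, which restrains retrotransposons in mouse germ cells, averaged 1.92 and 0.576 TPM. The 3 X-linked members, TEX13A, TEX28 and TEX13B, averaged 4.97, 3.41 and 0.0230 TPM and lay in the lower part of the order.

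Among the broadly expressed members the highest was TEX2, a lipid-transfer protein of the endoplasmic reticulum, with 85.1, 118 and 116 TPM in Maltreated and 81.7, 176, 172 and 147 TPM in Control libraries. SPATA5, an ATPase of ribosome assembly, had 100.4, 115 and 95.4 TPM in Maltreated and 116, 78.5, 73.4 and 74.1 TPM in Control libraries. SPATA7, a protein of the photoreceptor cilium, had 65.0, 92.2 and 89.0 TPM in Maltreated and 124, 43.1, 54.7 and 157 TPM in Control libraries. All 3 Maltreated values of SPATA7 lay between the lower and the upper pair of Control values. At the other end, SPATA2, which ties the deubiquitinase CYLD to the LUBAC ubiquitin ligase, averaged 1.88 TPM, and TEX10 of a ribosome-processing complex lay between 0 and 8.33 TPM. TEX29, on none of the role lists, had 68.9, 128 and 82.8 TPM in Maltreated and 141, 186, 140.0 and 88.8 TPM in Control libraries, with Maltreated 2 alone inside the Control range.

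Below these, most members kept the groups interspersed. SPATA17, a calmodulin-binding protein, had 125, 103 and 61.0 TPM in Maltreated and 147, 74.5, 23.5 and 66.9 TPM in Control libraries. TEX9 had 61.0, 81.6 and 90.1 TPM in Maltreated and 94.9, 38.2, 67.7 and 60.2 TPM in Control libraries. The highest library of both genes was Control 1, and in SPATA17 the lowest was Control 3. SPATA21 had 28.6, 69.0 and 32.4 TPM in Maltreated and 45.0, 75.0, 21.7 and 68.5 TPM in Control libraries, with high and low libraries in both groups. TEX264, a receptor that sends endoplasmic reticulum to autophagy, had 5.92, 8.52 and 9.24 TPM in Maltreated and 3.78, 12.6, 1.94 and 23.1 TPM in Control libraries, with the Maltreated values inside the Control range.

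The genes differed in how far the libraries spread. The coefficient of variation of TPM over the 7 libraries was 16.04% in SPATA6, 16.2% in its relative SPATA6L and 19.03% in TEX33. It was 86.0% in TEX26 and 102% in TEX35, where Control 4 alone reached 109 TPM and the other libraries lay at 5.08 to 48.9 TPM. The median over the members tested below was 48.9%, and over all genes tested 63.6%. Total counts did not order these genes in the same way: SPATA6 had 75766 sense counts in all, but TEX33 had 1118 and TEX35 had 1309.

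Within many of these genes most counts lay on a few neighbouring exons, in both groups. The blocks of exons given here were picked after the profiles had been seen. In SPATA6 (chromosome 1, 47582806 to 47756917, minus strand, in the coordinates of the deposited files) exons 6 to 10 of 12 held 91.1 ± 1.65% of the counts in Maltreated (SD, n = 3) and 83.8 ± 9.28% in Control libraries (SD, n = 4), but only 14.2% of the exon bases. The last exon, with 71.2% of the bases, held 0.169 ± 0.0530% of the counts in Maltreated and 0.387 ± 0.432% in Control libraries. SPATA5 (chromosome 4, 121863066 to 122286367, plus strand) was narrower still: exons 10 to 14 of 16 held 99.0 ± 0.703% in Maltreated and 97.7 ± 2.45% in Control libraries, in 7.63% of the bases. Its last exon of 5583 bases had 16 counts in all. The level per length of both genes is therefore an average over a short counted stretch and a long one with next to none.

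Other genes had blocks of their own. TEX9 had 98.9 ± 1.31% of its counts on exons 4 to 9 of 13 in Maltreated and 95.4 ± 6.28% in Control libraries, and TEX2 had 87.5 ± 5.80% in Maltreated and 85.7 ± 12.6% in Control libraries on exons 5 to 8 of 12. In SPATA18 exons 1 to 6 of 13 held 87.4 ± 5.23% in Maltreated and 88.4 ± 6.67% in Control libraries. TEX14 was broader, with 35.3 ± 4.42% in Maltreated and 39.1 ± 0.902% in Control libraries on exons 19 to 21 of 32, which hold 5.56% of its bases. SPATA31D1, of a family that mouse spermatids need, had 68.5 ± 7.85% in Maltreated and 75.4 ± 6.48% in Control libraries on its short exons 1 to 3, with 7.11% of the bases. The scarcity of counts in the last exon was common to the series. Over the 39 members with several exons and at least 100 sense counts, the last exon held a median of 5.98% of the counts and 35.04% of the bases, and its share of counts was below its share of bases in 37 (94.9%). Over all 11384 such genes the medians were 4.78% and 41.2%, and 94.9% were below.

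**Figure D2:**
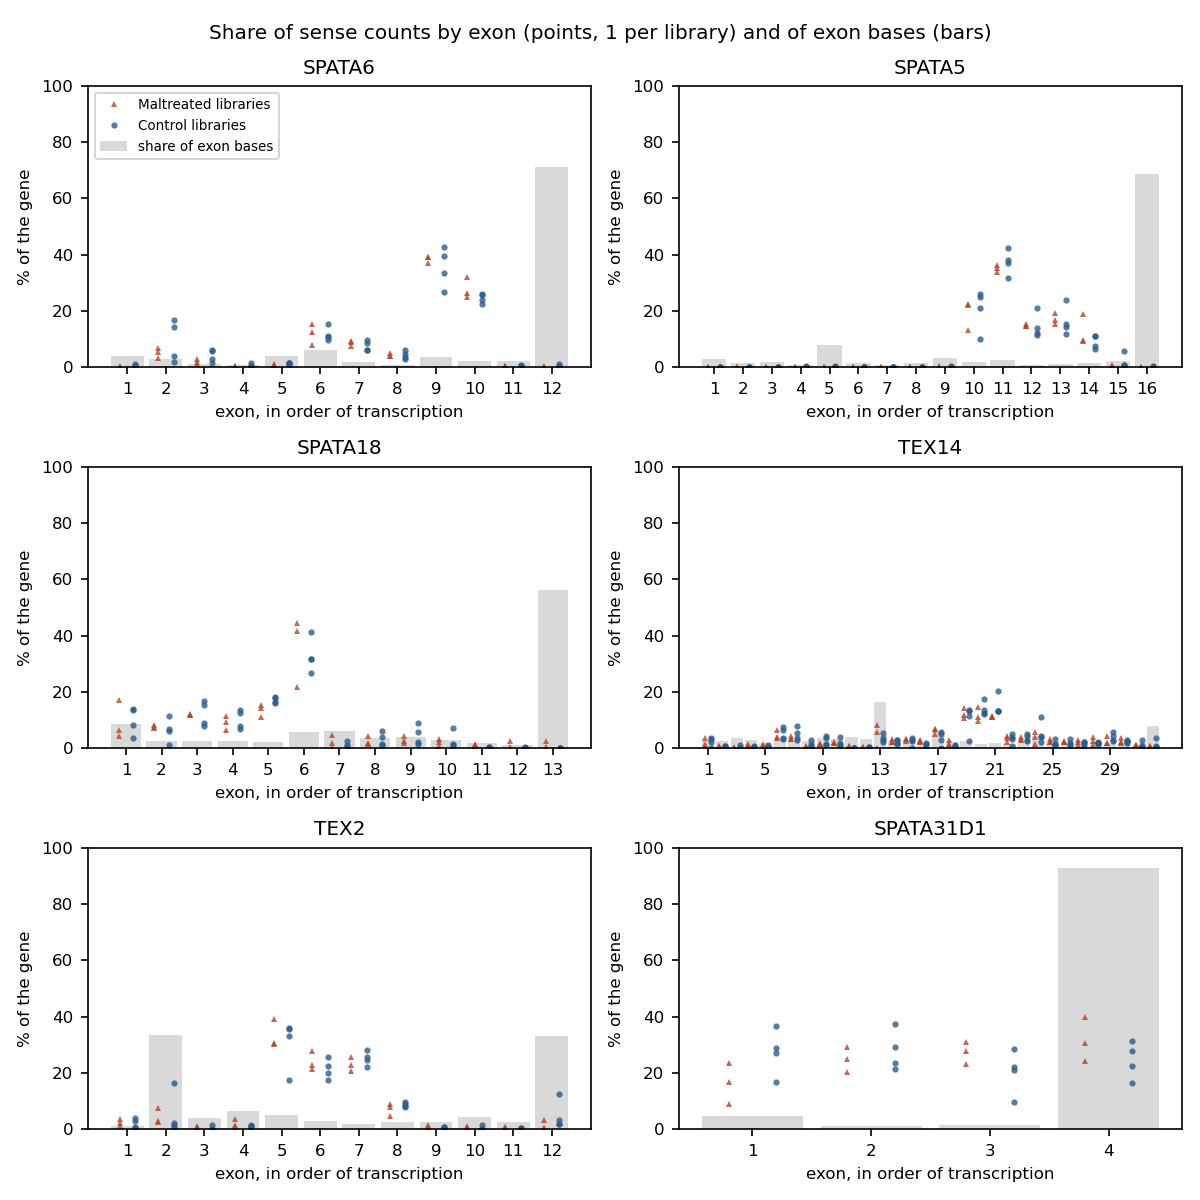
Share of a gene's sense counts on each exon (triangles, Maltreated libraries; circles, Control libraries) and the exon's share of the exon bases (grey bars), in order of transcription. In SPATA6 the points rise over exons 6 to 10 while the bar of the last exon reaches 71.2%, and in all 6 genes the points of both groups are interspersed over most exons.

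The deposited covered fraction, described as the part of the exon bases reached, had a median of 0.539 over the members and 0.280 over all genes. SPATA31D1 was listed at 1 in all 7 libraries. TEX37, a sperm microtubule protein now named SPMIP9, averaged 0.908, and SPATA5 averaged 0.146. This fraction did not always follow the counts: of 54 pairs of a member and a library listed as fully covered, 8 had at most 20 sense counts, among them SPATA2L (2268 bases) in Control 1 with 3 counts. The last exon of SPATA6, of 3513 bases, was listed as fully covered in 5 libraries that had 11 to 35 counts there. It is therefore given as deposited and was not compared between groups.

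The comparison of Maltreated with Control libraries found no SPATA or TEX gene that passed the test in sense RNA. Of the 45 members 37 had enough counts to be tested, 18 with a higher and 19 with a lower fitted level in the Maltreated libraries. With total counts in place of TMM factors as the scaling the split was 19 and 18, and with DESeq2 size factors 16 and 21. None passed edgeR's quasi-likelihood test at a Benjamini-Hochberg adjusted p of 0.05, against 0.0% of the 10719 genes tested, and none had an unadjusted p under 0.05, against 1.78% (0.886% higher and 0.896% lower). DESeq2 called 0 members, against 0.028% of all genes, and limma-voom 0, against 0.0%. At an unadjusted p under 0.05 limma-voom had 1 member, TEX29, against 3.28% of all genes, and DESeq2 none, against 3.05%. In no member were all Maltreated libraries above or below all Control libraries, which held for 3.59% of all genes (2.1% higher and 1.49% lower). The median log2 fold change was -0.02 over the 37 members and -0.02 over all genes. In RNA from a whole sperm sample, fewer cells that hold a transcript and less of it per cell cannot be told apart.

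**Figure D3:**
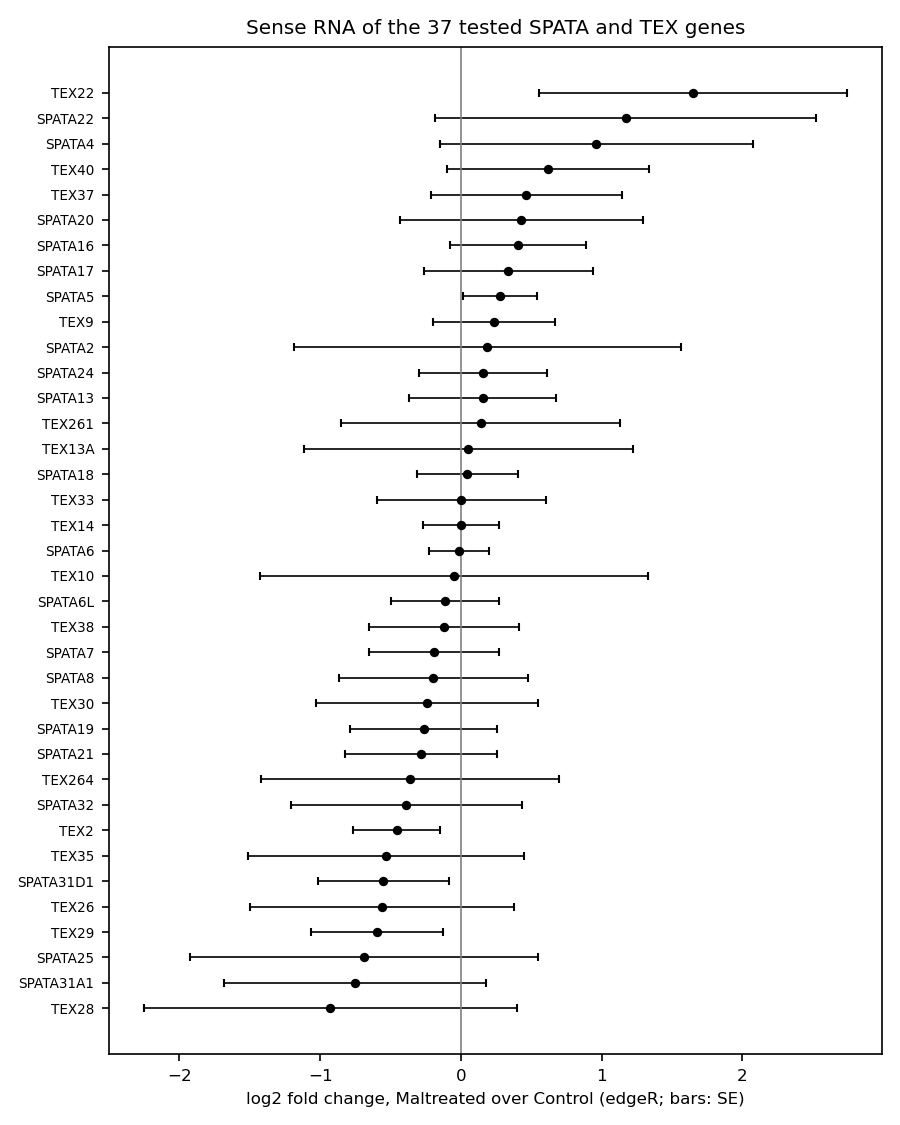
Log2 fold change of sense RNA, Maltreated over Control, with its standard error, for the 37 tested genes. Values run from 1.65 in TEX22 to -0.93 in TEX28, and the bars are shortest for the abundant genes SPATA6, SPATA5 and TEX14.

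The abundant genes were measured most closely. SPATA6 had 920.2, 1219 and 1063 CPM in Maltreated and 1246, 989, 966 and 1111 CPM in Control libraries, a log2 fold change of -0.02 ± 0.21 (SE). TEX14 had 315, 507 and 322 CPM in Maltreated and 401, 432, 399 and 291 CPM in Control libraries, a log2 fold change of 0.00 ± 0.27 (SE). CPM here is scaled with edgeR's TMM factors. Changes of the size of these errors would not have passed the test, and larger ones could also have been missed.

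Highest in fold change was TEX22, with 11.4, 23.6 and 6.51 CPM in Maltreated and 7.26, 8.88, 0.854 and 0.559 CPM in Control libraries. Its values in Control 3 and 4 rest on 5 and 3 counts, and the Maltreated libraries overlapped with Control 1 and 2. Its log2 fold change was 1.65 ± 1.09 (SE) with an adjusted p of 0.999 in edgeR, and 0.99 without Maltreated 2. SPATA22 had 6.498, 6.02 and 3.99 CPM in Maltreated and 6.83, 1.81, 1.02 and 0 CPM in Control libraries, where Control 1 was the highest of all. Its log2 fold change of 1.17 ± 1.35 (SE) was 2.53 without Control 1. SPATA4 (0.96 ± 1.11), TEX40 (0.62 ± 0.72) and SPATA5 (0.28 ± 0.26) completed the 5 members with the smallest p among those with a higher fitted level. Leaving out 1 library at a time moved SPATA4 between 0.02 (without Maltreated 2) and 1.75 (without Control 2), and TEX40 between 0.33 (without Control 4) and 1.10 (without Control 2). SPATA5 had 409.6, 404 and 321 CPM in Maltreated and 425, 292, 279 and 251 CPM in Control libraries, so that Control 1 again exceeded every Maltreated library.

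On the lower side TEX2 had 213, 254 and 240.1 CPM in Maltreated and 184, 401, 401 and 307 CPM in Control libraries, with Control 1 below all Maltreated libraries. Its log2 fold change was -0.45 ± 0.31 (SE; edgeR unadjusted p = 0.170). TEX29 had 24.2, 38.8 and 24.0 CPM in Maltreated and 44.3, 59.4, 45.8 and 25.9 CPM in Control libraries, a log2 fold change of -0.60 ± 0.47 (SE). Only Control 4 kept these groups from separating. SPATA31D1 had 87.5, 85.5 and 93.3 CPM in Maltreated and 165, 111, 42.9 and 201 CPM in Control libraries, with Maltreated values close together and Control values spread on both sides of them. Its log2 fold change of -0.55 ± 0.47 (SE) was -0.28 without Control 4. SPATA31A1 (-0.75 ± 0.93) and TEX28 (-0.93 ± 1.33) also rested on Control 4, without which their log2 fold changes were -0.01 and 0.01. Reads of SPATA31A1 and SPATA31D1 are uncertain, since primates carry near-identical copies in this family and how reads with several matches were counted is not given. TEX28 shares 520 exon bases with OPN1MW on the other strand, a gene with 24 sense counts in all.

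By role, 9 of 19 tested members of the spermatid list had a higher and 10 a lower fitted level in Maltreated libraries, with a median log2 fold change of -0.02. In the meiosis list 3 were higher and 1 lower (median 0.03), and among the broadly expressed members 6 were higher and 4 lower (median 0.15). The 4 tested members without a role list, TEX26, TEX28, TEX29 and TEX35, were all lower in the fit, with a median of -0.58. None of these counts holds a gene that passed the test. Scaled to the library total without TMM factors, the summed sense level of all 45 members was 2989, 3669 and 3062 CPM in Maltreated and 3333, 3264, 2895 and 3367 CPM in Control libraries, and the ranges overlapped. Without Maltreated 3 and Control 4, the libraries with the most leukocyte RNA, 27 of 40 tested members were higher in the fit, with a median of 0.16 against -0.05 over all genes, and again 0 passed the edgeR test. The part that leukocyte RNA plays in the members' values was not tested.

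TEX19 was among 8 members with too few counts to test. It had 25, 16 and 0 sense counts in Maltreated 1 to 3 and 0 in all 4 Control libraries. On its 2 exons the counts were 12 and 13 in Maltreated 1 and 8 and 8 in Maltreated 2. A read on both exons is counted on each, so these sums can stand for fewer reads. For a Control library a count of 0 allows up to 0.320 to 0.559 CPM (3 counts), and the Maltreated libraries had 0.837, 2.68 and 0 CPM. The others, TEX36, TEX12, SPATA9, SPATA5L1, SPATA2L, SPATA12 and TEX13B, had 2 to 117 counts in all.

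Antisense counts were scarce at most members. Over all libraries only SPATA12 and TEX13B, with 20 and 7 antisense counts, had more antisense than sense counts, 2 of 45 members against 17.6% of all genes. In counts summed over the libraries, the median share of antisense was 3.68% over the 45 members and 9.76% over the 18161 genes with counts. Taken as a mean over libraries, the median share was 2.54% over the 23 named members, some of which were chosen for their antisense counts. In antisense counts per length TEX26, TEX14 and SPATA31D1 led. Per library, antisense made up 19.2, 24.9 and 89.5% of the counts of TEX26 in Maltreated and 16.2, 40.9, 72.4 and 0% in Control libraries. For TEX14 it made up 6.44, 17.3 and 4.53% in Maltreated and 6.09, 11.04, 16.03 and 3.16% in Control libraries. No annotated gene on the other strand overlaps these 3 genes.

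**Figure D4:**
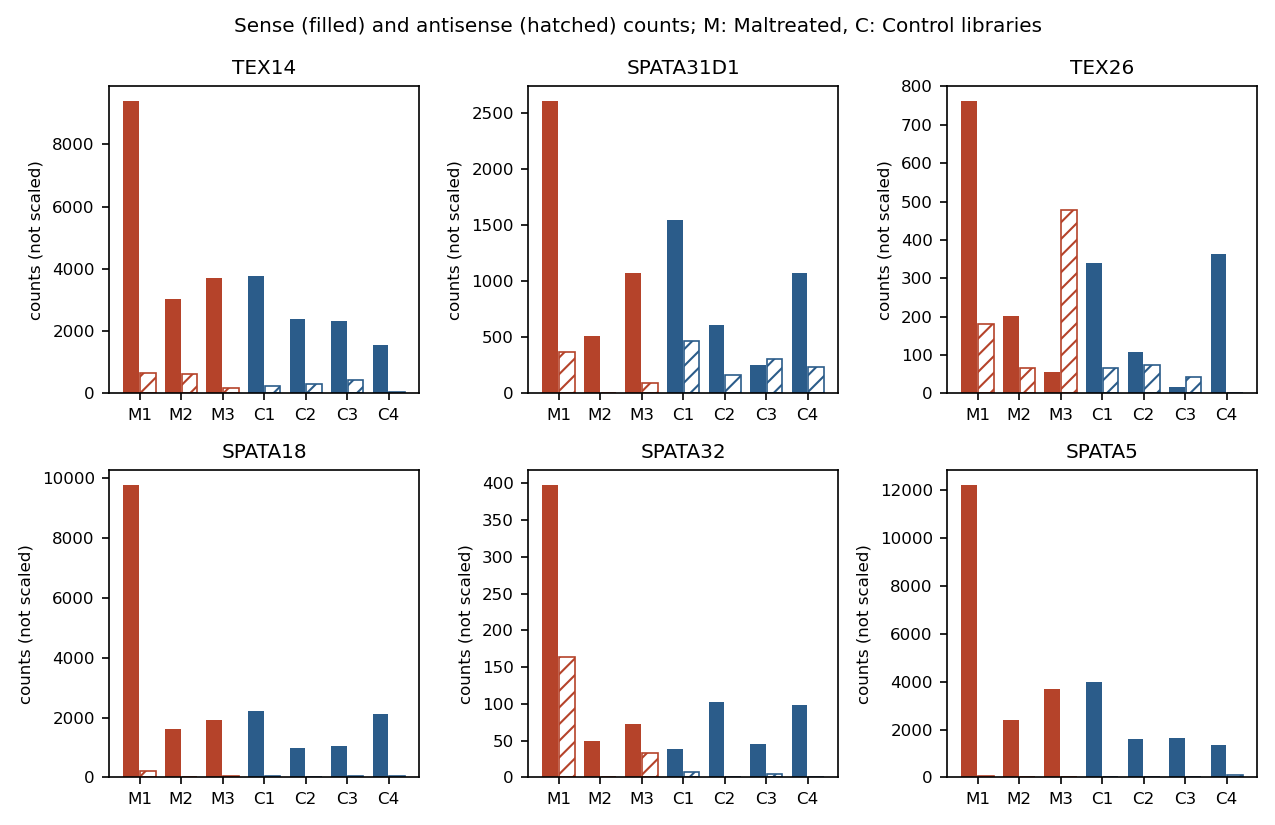
Sense (filled) and antisense (hatched) counts, not scaled for depth, in the Maltreated libraries (M1 to M3) and the Control libraries (C1 to C4). TEX26 has 478 antisense counts in Maltreated 3 and 0 in Control 4, and SPATA31D1 has 0 in Maltreated 2.

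No member passed the test in antisense RNA either. Of 12 members tested 7 had a higher and 5 a lower fitted level in Maltreated libraries. None passed the edgeR test, against 0.0% of the 4382 genes tested, and none had an unadjusted p under 0.05, against 2.51% (1.1% higher and 1.41% lower). DESeq2 called 0 members, against 0.297% of all genes, and limma-voom 0, against 0.0%. At an unadjusted p under 0.05 limma-voom had 1 member, SPATA31D1, against 5.29% of all genes, and DESeq2 none, against 4.84%. The log2 fold changes had a median of 0.13, against -0.13 over all genes.

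SPATA31D1 (chromosome 9, 12914204 to 12920728, minus strand) had 150.4, 0 and 113 antisense CPM in Maltreated and 626, 352, 600.5 and 338 antisense CPM in Control libraries. All Control libraries lay above all Maltreated libraries, a separation that 4.36% of all genes showed, 2.85% with higher and 1.51% with lower Maltreated values. Its log2 fold change was -2.44 ± 1.42 (SE; edgeR unadjusted p = 0.110, adjusted p = 0.998), and -1.80 without Maltreated 2, the library at 0. Exons 1 to 3 held 66.8 ± 1.27% of the antisense counts in the 2 Maltreated libraries that had any and 66.8 ± 10.9% in Control libraries. In Control 1, 2 and 3 these 3 exons had identical antisense counts, 108, 40 and 76 each. Control 4 differed, with 47, 36 and 36 antisense counts there and 115 on exon 4. Added up over the libraries, the largest antisense count on any exon was 541, against 1639 antisense counts in all. The antisense CPM of SPATA31D1 can therefore stand for fewer reads. As with SPATA31A1, reads shared with related copies cannot be told apart here.

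TEX26 (chromosome 13, 10472541 to 10513374, plus strand) had 73.6, 123 and 580.4 antisense CPM in Maltreated and 87.8, 159.8, 81.9 and 0 antisense CPM in Control libraries. Maltreated 3 alone stood above the Control range. The log2 fold change was 1.65 ± 1.47 (SE), and it was 0.25 without Maltreated 3 and -0.10 without Maltreated 3 and Control 4. Sense counts of TEX26 lay on exons 3 and 4 of 7, with 81.7 ± 17.1% in Maltreated and 86.8 ± 16.4% in Control libraries, whereas 31.97 ± 2.21% of its antisense counts lay there in Maltreated and 38.4 ± 0.834% in Control libraries (3 libraries each). The antisense counts of TEX26 repeated from exon to exon: in Maltreated 1 the count was 31 on each of exons 1 to 4 and 19 on each of exons 5 to 7. The largest antisense count on any exon, added up over the libraries, was 154, against 908 antisense counts in all. Reads counted on several exons even out the shares, so these shares do not show where the antisense reads lay.

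TEX14 (chromosome 17, 34563392 to 34659900, plus strand) had 263, 1168 and 214 antisense CPM in Maltreated and 325, 639, 869.5 and 73.6 antisense CPM in Control libraries. Maltreated 2 lay above every Control library and Control 4 below every Maltreated library, with the other libraries interspersed (log2 fold change 0.20 ± 1.03, SE). Its antisense counts repeated from exon to exon: in Maltreated 2 the count was 17 on 18 of the 32 exons, and in Control 3 it was 12 on 17 exons. Since the deposited count of a gene is a sum over its exons, the 2494 antisense counts of TEX14 can stand for far fewer reads. The largest antisense count on any exon, added up over the libraries, was 304.

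Control 4 held much of the antisense signal elsewhere. TEX10 (chromosome 9, 71850156 to 71900139, minus strand) had 1, 0 and 15 antisense counts in Maltreated and 11, 1, 0 and 132 in Control libraries. Its 132 counts in Control 4 were 33 on each of the last 4 exons, and this library had no sense count of TEX10. Its log2 fold change of -3.04 ± 2.29 (SE) was -6.89 without Maltreated 3, and without Control 4 the gene did not pass the filter on low counts. INVS, a gene on the other strand with 16845 sense counts, lies 896 bases away. Antisense counts of SPATA5, SPATA19, TEX9 and SPATA31A1 were also highest in Control 4, with 85, 100, 105 and 98, against at most 73, 37, 16 and 7 in the other libraries. Only TEX9 shares its span with a gene on the other strand, MNS1. SPATA24 and SPATA13 were the other members with the smallest p among those with a higher antisense level in the fit, with log2 fold changes of 0.97 ± 1.85 and 1.42 ± 1.40 (SE). Without Maltreated 2 that of SPATA24 was 1.57 and that of SPATA13 was 0.18. For SPATA13, an exchange factor for small GTPases, Maltreated 2 alone had 86.6 antisense CPM and the other libraries 7.21 to 25.9.

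Genes listed as partners of SPATA and TEX proteins did not pass the test either. The list was not limited to partners of the members analysed: for PPP3R2, PPP3CA, PPP3CB, PPP3CC and VDAC2 no partner among the members is named here. Of 47 listed partners 46 were in the files and 44 were tested in sense RNA. In the fit 21 were higher and 23 lower in Maltreated libraries, with a median log2 fold change of -0.02, and none passed the edgeR test or had an unadjusted p under 0.05. PPP3R2, the testis subunit of calcineurin, had 1.84, 4.52 and 2.26 CPM in Maltreated and 1.07, 0.544, 0.512 and 0.186 CPM in Control libraries (log2 fold change 2.26 ± 1.20, SE). RBCK1 of the LUBAC complex had 2.01, 1.84 and 0.955 CPM in Maltreated and 3.84, 15.2, 7.17 and 3.73 CPM in Control libraries (log2 fold change -2.22 ± 1.06, SE). In both genes, and in NOL9 (log2 fold change 1.30 ± 0.90), the groups did not overlap. These were 3 of the 44 listed genes tested, PPP3R2 included, beside the 3.59% of all genes.

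Members and their partners did not always share a sign. The recombination pair MEIOB and SPATA22 did, whereas TEX40 (CATSPERZ) was at 0.62 ± 0.72 (SE) and EFCAB9 below 0. MEIOB had 75.5, 128 and 74.3 CPM in Maltreated and 71.4, 75.4, 35.9 and 46.9 CPM in Control libraries, a log2 fold change of 0.69 ± 0.40 (SE), beside the 1.17 ± 1.35 of SPATA22. Control 2 exceeded 1 Maltreated library, so these groups overlapped. WDR18 of the TEX10 complex had a log2 fold change of -0.81 ± 0.47, EFCAB9, the calcium sensor beside CATSPERZ, -2.12 ± 1.23, and VCP, an ATPase that binds the autophagy receptor TEX264, 0.98 ± 0.62 (SE). Single libraries moved several of these: EFCAB9 was at -1.27 without Control 4, WDR18 at -0.37 without Control 3, and MEIOB at 0.36 without Maltreated 2. Per length the channel genes CATSPER2 and CATSPERD averaged 4012.5 and 1353 TPM over the 7 libraries, above SPATA6 at 490.0 TPM. The other CATSPER genes on the partner list averaged less than SPATA6. CATSPER1 was at 5.12, CATSPER3 at 7.91, CATSPERB at 25.1, CATSPER4 at 43.0 and CATSPERG at 77.7 TPM.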

How the data were processed

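Total RNA of 7 sperm libraries, 3 Maltreated and 4 Control, was sequenced after a standard Illumina preparation, per the labels' protocols. The deposited counts are whole numbers of reads overlapping each exon, split by strand and summed over the exons of a gene, per the file headers, so a read that spans several exons is counted on each. The deposited covered fraction is the number of exon bases reached divided by all exon bases, per the file headers. STAR, featureCounts and bedtools are named without versions in the submitters' processing notes. The genome build, annotation, strand setting of the kit and treatment of reads with several matches are not given in the sources used here.

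The 45 members and all lists were chosen with earlier results of these data known. Of the genes deposited, 2 listed on both strands were left out. Sense and antisense counts were tested over all genes with edgeR 4.0.16 (R 4.3.3; TMM factors, filterByExpr with a minimum count of 10 and a minimum total of 15, quasi-likelihood F test, Benjamini-Hochberg adjustment, threshold 0.05). Residual degrees of freedom were 5, and the common biological coefficient of variation was 0.858 in sense and 1.37 in antisense counts. DESeq2 1.42.0 and limma 3.58.1 (voom with sample weights), other scalings and filters, age as a covariate, a replicate block and leaving out each library were alternatives. The edgeR script was tested on simulated counts. TPM is the sense count per exon length scaled over 18282 genes. Floors of 3 counts cover counting error only.

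Genes were named by level, by p in each direction, by antisense count per length, as the leaders of each role list and for groups that do not overlap. TEX35, TEX33, TEX37, TEX12, TEX13A, TEX13B, TEX19, TEX264, SPATA6L, SPATA17, SPATA21, SPATA2, SPATA2L, SPATA12 and NOL9 were named outside this rule, after their values were seen. So were CATSPER1, CATSPER2, CATSPER3, CATSPER4, CATSPERB, CATSPERD and CATSPERG. Of the 45 symbols 37 matched a current RefSeq symbol and 2 (TEX37 and TEX40) a synonym.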

Additional observations from a re-analysis of the deposited data

Results flagged for a closer look

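SPATA31A1 had 20.1 sense CPM in Control 4, far from 3.59 to 6.34 CPM in the other Control libraries, and 7.67, 4.01 and 4.34 CPM in Maltreated libraries. The gap to the nearest Control library, divided by the range of the group, was above Dixon's 95% critical value for 4 samples. This was 1 of 23 genes examined in this way, and chance alone gives about 1 in 20. Control 4 also had 98 of the gene's antisense counts, and it was among the libraries with the most leukocyte RNA (744 CPM). The part of either in the value was not tested.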

How the results depend on the processing

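No SPATA or TEX gene passed the threshold in any setting run, in sense or in antisense counts. Over all genes edgeR with TMM factors and its filter called 0 in each. DESeq2's Wald test called 3 in sense and 13 in antisense counts, edgeR with age as a covariate 1 in sense, and edgeR with no filter 24 in antisense; the cause was not tested. Measured by covered fractions in place of counts, the median antisense share of the named members was 14.1%, against 2.54%. DESeq2 size factors put the median antisense log2 fold change of all genes at -0.24, against -0.13. Signs near 0 were not stable: of 36 single-gene fold changes 16 never reversed and 20 reversed at least once, in 75 of 693 recomputed values, none past the threshold. The reversed log2 fold changes follow by setting.

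With voom they were -0.19 for SPATA24, -0.26 for TEX14, -0.18 for SPATA16, 0.11 for SPATA7, 0.24 for TEX38, 0.047 for SPATA31A1 and -0.094 for SPATA13, and in antisense -0.65 for TEX14 and 0.67 for SPATA5. With age as a covariate they were 0.15 for SPATA6, -0.39 for SPATA24, -0.18 for TEX14, -0.0016 for SPATA16, 0.65 for SPATA7, -0.27 for SPATA4, 0.72 for SPATA31D1, 0.42 for SPATA31A1 and 2.25 for TEX26, and in antisense -1.13 for TEX14, 3.90 for SPATA5 and 4.80 for TEX10. Without Control 4 and Maltreated 3 they were -0.015 for TEX14, 0.087 for SPATA7, 0.26 for TEX38, 0.12 for SPATA31A1, 0.51 for TEX28, 0.59 for TEX26 and -0.11 for SPATA13, and in antisense 1.95 for SPATA5 and -0.10 for TEX26. With exon counts lowered by the smaller count next to them (in antisense an alternative chosen after seeing the data, with none reversed) they were 0.16 for SPATA6, -0.15 for TEX14, -0.16 for SPATA18, 0.042 for TEX38, 0.049 for TEX10 and -0.0079 for TEX9. Other scalings and filters gave 0.019 for SPATA6 with total counts, and for TEX14 -0.011 with DESeq2 size factors, -0.0057 with upper-quartile factors, -0.012 in DESeq2's test and -0.013 with a mean count of at least 10. With sense plus antisense counts SPATA6 was at 0.017 and TEX26 at 0.15.

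With the replicate number as a block, 0 genes were called in sense and in antisense counts, and the reversed values were 0.00058 for SPATA6, -0.13 for SPATA24, -0.14 for TEX14, 0.26 for SPATA7, 0.36 for TEX26 and -0.075 for SPATA13, and in antisense -0.47 for TEX14 and 1.79 for SPATA5. The numbers were not taken as a pairing: deviations of same-numbered libraries had correlations of 0.075, 0.0099 and -0.019 in sense and 0.055, 0.036 and -0.010 in antisense counts. Leaving out 1 library at a time gave -0.14 to 0.08 for SPATA6, -0.16 to 0.36 for SPATA24, -0.28 to 0.11 for TEX14, -0.33 to 0.75 for SPATA16, -0.17 to 0.35 for SPATA18, -0.42 to 0.10 for SPATA7, -0.69 to 0.13 for TEX38, -1.36 to 0.010 for TEX28, -1.05 to 0.11 for TEX26, -0.15 to 0.56 for SPATA13, -0.86 to 0.87 for TEX10 and -0.60 to 0.0099 for TEX30, and -0.94 to 0.66 for antisense TEX14. Antisense TEX10 gave no value without Control 1 or Control 4, and antisense SPATA24 none without Control 1, Control 4 or Maltreated 1, since neither then passed the filter on low counts.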
